A study of Mus musculus with 4 samples.

Results

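The genes described here drive and restrain the cell division cycle and copy the genome: 40 genes, picked by their symbols from the 24138 rows of the deposited table. All 40 were found, each in a single row. They were measured by bulk RNA sequencing of 4 whole livers. The donors were male mice of the strain C57BL/6J at 18 weeks of age. The animals had received the FAT-MASH diet, which models metabolic dysfunction-associated steatohepatitis (fatty liver with inflammation), and were also treated with resolvin D1 (RvD1), a lipid mediator of the resolution of inflammation. The livers form a single group and are numbered 1 to 4 as in the labels. No liver without the diet or without RvD1 was analysed here, so the values describe levels and spread within treated animals and hold no measure of what either did. The spread is that between these 4 samples. The labels do not state the dose, the time of treatment or the stage of disease.

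A cell enters the cycle when D cyclins with CDK4 or CDK6, then E cyclins with CDK2, phosphorylate the retinoblastoma (pocket) proteins and free E2F transcription factors. E2F activity raises the genes of DNA synthesis, among them the MCM helicase, the sliding clamp PCNA and the enzymes that make deoxynucleotides. Cyclin A and cyclin B with CDK1 then carry the cell through mitosis, whose kinases, spindle checkpoint and anaphase regulators are transcribed late in the cycle. Most hepatocytes of an adult liver rest outside the cycle and can return to it after injury, often becoming polyploid.

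Levels are given as FPKM, fragments scaled by transcript length and by sequencing depth, so that levels of different genes can be set side by side per length. The depth was estimated at 18.8 to 20.1 M fragments per liver, and 14785 to 15317 genes had a value above 0 in a liver. Hepatocyte markers were abundant, with Apoa1 at 11922 to 15343 FPKM, although Alb, named here after its values were seen, was listed at 0 in all 4 livers. Positions of genes are those of the deposited spans in mm10, the build named in the submitters' processing notes. The bulk values cannot tell fewer cells of a kind from less RNA in each cell.

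All 40 members had a value above 0 in all 4 livers, but most were low. The mean reached 1 FPKM for 26 of 40 members (65%), against 43.7% of all rows in the table. Of these, 5 exceeded 10 FPKM on average, namely Cdk4, Pcna, Ccnd3, Ccnd1 and Cdkn2c, and 21 lay between 1 and 10 FPKM. The 14 members below 1 FPKM were 11 of the 13 mitotic genes together with Ccne2, Rbl1 and E2f7. The median of the 40 means was 1.57 FPKM. By role, the median of the means was 6.59 FPKM for the 10 G1 genes, 2.80 FPKM for the 10 replication genes, 1.56 FPKM for the 7 E2F and pocket protein genes and 0.627 FPKM for the 13 mitotic genes.

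**Figure D1:**
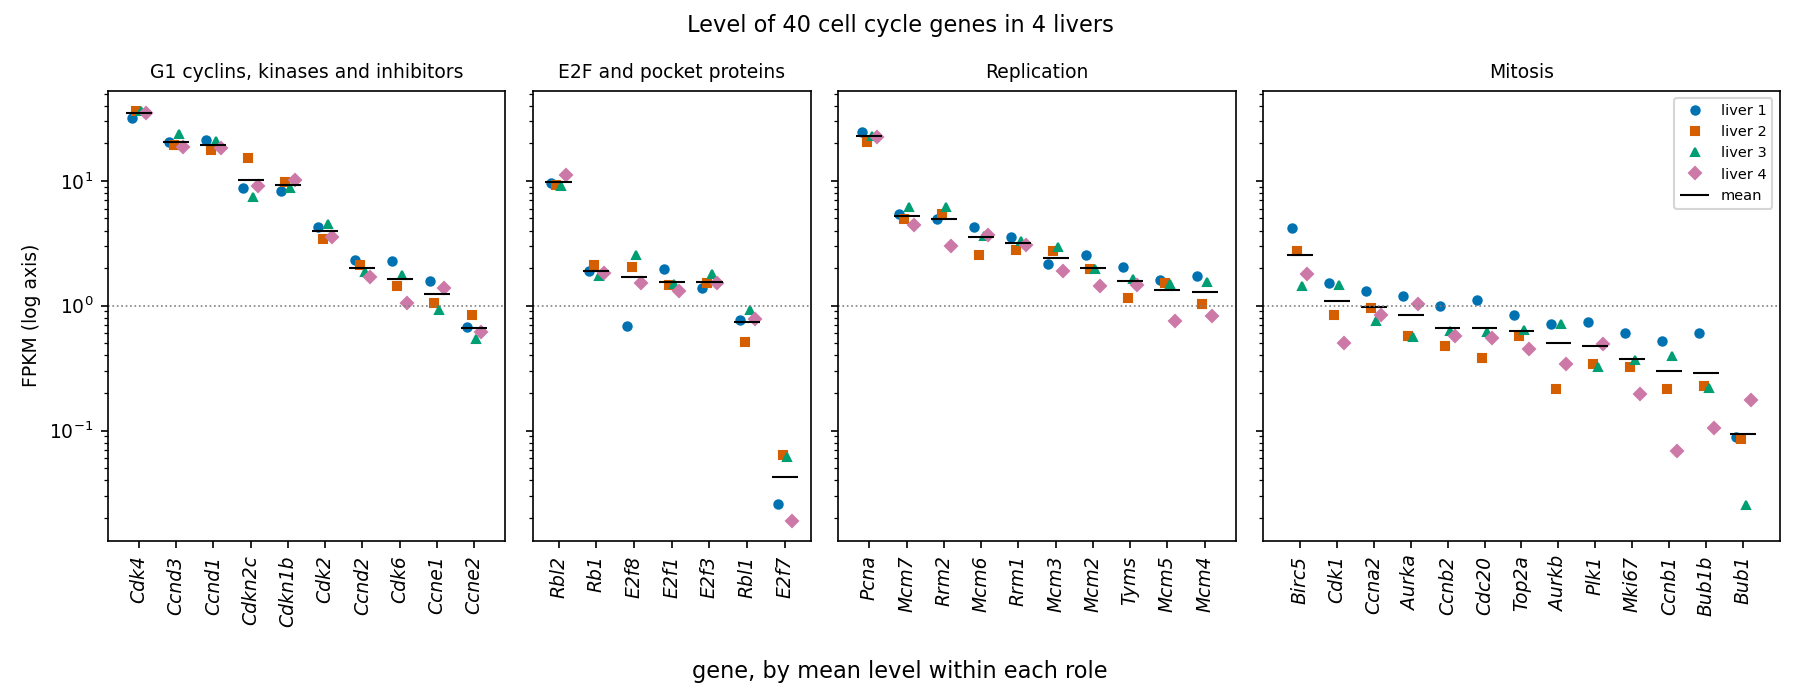
Level of each of the 40 genes in FPKM on a log axis, with a symbol for each liver, a black line at the mean of the 4 livers and a dotted line at 1 FPKM. Cdk4 had the highest mean of the 40 (34.7 FPKM), and 11 of the 13 mitotic genes had a mean below the dotted line.

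Among the kinases and cyclins of G1, Cdk4 (chromosome 10, 127063603 to 127067282) was the most abundant. It was 31.6, 36.03, 36.3 and 34.7 FPKM in livers 1 to 4, a coefficient of variation (CV) of 6.14%, the lowest of all 40 genes. Cdk6, which binds the same D cyclins, was 2.26, 1.44, 1.75 and 1.06 FPKM. The ratio of Cdk4 to Cdk6 therefore ran from 14.004 in liver 1 to 32.8 in liver 4. Cdk2, the partner of the E and A cyclins, lay between them at 4.25, 3.41, 4.51 and 3.56 FPKM, with livers 1 and 3 above livers 2 and 4.

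The D cyclins, which couple growth signals to CDK4 and CDK6, were unequal. Ccnd1 (chromosome 7, 144929931 to 144939925) was 21.2, 17.6, 20.7 and 18.4 FPKM in livers 1 to 4. Ccnd3 was 20.3, 19.4, 23.7 and 18.7 FPKM, and Ccnd2 was 2.33, 2.10, 1.87 and 1.69 FPKM. Ccnd1 and Ccnd3 could not be ordered, since their mean log2 ratio of 0.07 ± 0.12 (SD, n = 4, Ccnd3 over Ccnd1) was smaller than its spread and liver 1 had the opposite order. Ccnd1 exceeded Ccnd2 in 4 of 4 livers, by 9.74 times on average. The E cyclins, which act at the entry into S phase, were lower still, with Ccne1 at 1.59, 1.06, 0.924 and 1.39 FPKM and Ccne2 at 0.673, 0.843, 0.540 and 0.614 FPKM. The summed D cyclins came to 42.02 ± 3.67 FPKM, the E cyclins to 1.91 ± 0.334 FPKM and Ccna2 with the B cyclins to 1.94 ± 0.611 FPKM (each SD, n = 4).

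Both CDK inhibitors lay between Cdk4 and Cdk2 in mean level. Cdkn1b, which encodes p27, an inhibitor of cyclin E and cyclin A complexes, was 8.30, 9.80, 8.78 and 10.1 FPKM in livers 1 to 4. Cdkn2c (chromosome 4, 109660876 to 109666756) encodes p18, an inhibitor of CDK4 and CDK6. It was 8.83, 15.3, 7.36 and 9.14 FPKM. Cdkn1b was within a narrow band, whereas Cdkn2c in liver 2 lay above the other livers. On log2(FPKM + 1) that gap was 0.711 of the range and was too small to pass Dixon's ratio, which sets the gap of an extreme sample against the whole range at the 95% critical value for 4 samples. Their order was not fixed, with Cdkn2c the higher in 2 of 4 livers.

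Of the pocket proteins, Rbl2, which encodes p130, the form associated with resting cells, was highest at 9.57, 9.33, 9.17 and 11.1 FPKM in livers 1 to 4. Rb1 was 1.91, 2.14, 1.73 and 1.82 FPKM. Rbl1, which encodes p107, the form associated with cycling cells, was 0.766, 0.515, 0.928 and 0.780 FPKM. The order Rbl2, Rb1, Rbl1 was the same in 4 of 4 livers, and Rbl2 exceeded Rbl1 between 9.88 and 18.1 times. Among the E2F genes, the activator E2f1 was 1.98, 1.47, 1.48 and 1.31 FPKM, highest in liver 1. The activator E2f3 was 1.39, 1.53, 1.78 and 1.51 FPKM, lowest in liver 1. Their means of 1.56 ± 0.293 and 1.55 ± 0.166 FPKM (SD, n = 4) did not differ beyond that spread.

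E2f8 and E2f7 encode the atypical E2F repressors, which in liver are known for their part in hepatocyte polyploidy. E2f8 (chromosome 7, 48866429 to 48881041) was 0.692, 2.05, 2.53 and 1.51 FPKM in livers 1 to 4. Liver 1 was thus the lowest, at 0.408 of the mean of the 4 livers, and liver 3 the highest, a 3.66-fold range. The range was 1.52-fold for E2f1 and 1.28-fold for E2f3. E2f7 was 0.0258, 0.0632, 0.0609 and 0.0190 FPKM, which corresponds to about 1.89 to 6.44 fragments per liver, so an order of livers was not detectable at this depth.

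The replication genes were present at moderate levels. Pcna (chromosome 2, 132249286 to 132253180), the sliding clamp of the polymerases, was 24.8, 20.6, 22.9 and 22.4 FPKM in livers 1 to 4. The 6 subunits of the MCM helicase assemble in equal numbers, but their transcripts were unequal. Mcm7 was 5.43, 4.93, 6.14 and 4.41 FPKM, while Mcm4 was 1.73, 1.03, 1.55 and 0.830 FPKM, so that Mcm7 exceeded Mcm4 between 3.15 and 5.32 times. Mcm6 was 4.27, 2.55, 3.602 and 3.66 FPKM, Mcm3 was 2.14, 2.75, 2.95 and 1.89 FPKM and Mcm2 was 2.57, 1.98, 1.98 and 1.44 FPKM. Liver 2 was thus lowest for Mcm6 but second highest for Mcm3. In the order of the means, Mcm7, Mcm6, Mcm3, Mcm2, Mcm5 and Mcm4, the step from Mcm7 to Mcm6 and that from Mcm2 to Mcm5 held in 4 of 4 livers. For these steps, the exact test described with the family pairs could not reach the threshold. The steps from Mcm6 to Mcm3, from Mcm3 to Mcm2 and from Mcm5 to Mcm4 were smaller than their spread between livers.

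Mcm5 (chromosome 8, 75109509 to 75128439) was 1.61, 1.51, 1.48 and 0.756 FPKM in livers 1 to 4. Liver 4 stood apart from 3 livers that agreed closely, and Mcm5 was the only one of the 26 members averaging 1 FPKM or more to pass Dixon's ratio (0.875 on log2(FPKM + 1)). Of 10541 genes, 5.46% passed, and 0.493% passed with liver 4 lowest, so 1 of 26 is near the share over all genes. The summed MCM genes were 17.7, 14.8, 17.7 and 12.99 FPKM, with livers 1 and 3 above livers 2 and 4.

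The enzymes of deoxynucleotide synthesis differed in how they varied. Rrm1, the large subunit of ribonucleotide reductase, was 3.53, 2.79, 3.29 and 3.05 FPKM in livers 1 to 4. Rrm2, its small subunit, which is made in S phase, was 4.96, 5.47, 6.20 and 2.99 FPKM. Rrm1 was steady with a CV of 10.01%, whereas Rrm2 had a CV of 28.0% and was lowest in liver 4, the only liver in which Rrm2 did not exceed Rrm1. Tyms, which makes thymidylate, was 2.05, 1.16, 1.64 and 1.46 FPKM, highest in liver 1 and lowest in liver 2.

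**Figure D2:**
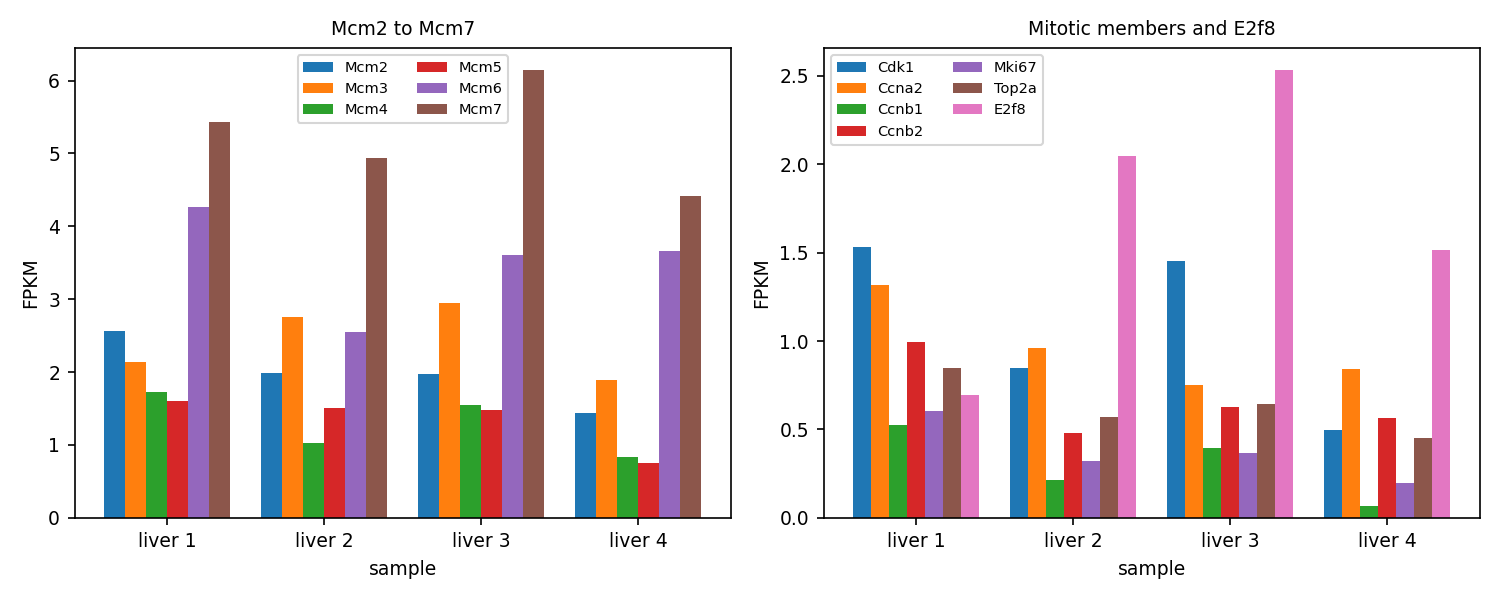
FPKM of Mcm2 to Mcm7 (left) and of 6 mitotic genes with E2f8 (right) in each of the 4 livers. Mcm7 was the tallest MCM bar in all 4 livers, and E2f8 was lowest in liver 1, where Mki67, Top2a, Cdk1 and the cyclins were highest.

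Among the role groups, the mitotic genes were the least abundant and had the highest median CV between livers. Few fragments also raise a CV, and the counting error is set beside it below. Mki67 (chromosome 7, 135689788 to 135716379), which encodes the proliferation marker Ki-67, was 0.606, 0.322, 0.368 and 0.197 FPKM in livers 1 to 4. Top2a, the topoisomerase that untangles sister chromatids, was 0.846, 0.570, 0.642 and 0.453 FPKM. Both were highest in liver 1 and lowest in liver 4, and Mki67 spanned 3.08-fold. Cdk1 (chromosome 10, 69336635 to 69352912), the kinase of mitotic entry, was 1.53, 0.849, 1.45 and 0.499 FPKM, so that livers 1 and 3 were high and livers 2 and 4 low.

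The cyclins that bind CDK1 were also highest in liver 1. Ccna2 was 1.32, 0.963, 0.750 and 0.842 FPKM, Ccnb2 was 0.992, 0.478, 0.630 and 0.567 FPKM, and Ccnb1 was 0.524, 0.216, 0.396 and 0.0689 FPKM in livers 1 to 4. The 7.60-fold range of Ccnb1 rests on a value in liver 4 of about 2.97 fragments. The 2 B cyclins kept their order, with Ccnb2 above Ccnb1 in 4 of 4 livers.

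The mitotic kinases did not all share an order of livers. Aurka, which acts at the spindle poles, was 1.21, 0.569, 0.557 and 1.03 FPKM in livers 1 to 4, and Plk1, which drives several steps of mitosis, was 0.742, 0.339, 0.322 and 0.490 FPKM. Liver 4 came second for both. Aurkb, the kinase of the chromosomal passenger complex, was 0.719, 0.217, 0.718 and 0.341 FPKM, with livers 1 and 3 level and high. Birc5, which encodes survivin, another subunit of that complex, was 4.17, 2.75, 1.43 and 1.79 FPKM, so that liver 2 came second and liver 3 was lowest. Over the 12 mitotic genes averaging 0.1 FPKM or more, the second highest liver was liver 3 for 7 genes, liver 2 for 3 and liver 4 for 2.

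Genes of the spindle checkpoint and of anaphase were among the lowest. Cdc20, the activator of the anaphase-promoting complex, was 1.11, 0.378, 0.612 and 0.553 FPKM in livers 1 to 4. Bub1b, which encodes the checkpoint protein BUBR1, was 0.602, 0.229, 0.221 and 0.105 FPKM, with liver 1 above the next liver 2.62-fold. Bub1, a checkpoint kinase, was 0.0891, 0.0857, 0.0256 and 0.175 FPKM. These levels of Bub1 correspond to about 1.61 to 10.6 fragments, and it was the only mitotic gene that was highest in liver 4.

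To set genes of different abundance on a common scale, each FPKM was divided by the mean of the gene over the 4 livers. All 12 mitotic genes averaging 0.1 FPKM or more were highest in liver 1, against 19.6% of 13474 genes past the same filter and 24.2% of the 5460 with means from 0.1 to 3 FPKM. For Aurkb the lead over liver 3 was only 0.719 against 0.718 FPKM, and it was lost when libraries were scaled to equal sums or by median ratios, which left 11 of 12. The median relative level of the 12 genes was 1.53, 0.750, 0.933 and 0.714 in livers 1 to 4, against 0.989, 0.984, 0.984 and 1.02 over all 13474 genes and 1.01, 1.01, 0.997 and 0.937 over the 5460 of low level. Liver 1 was at 1.35 to 2.08 times the mean for each of the 12. The mitotic genes were not tested against the rest of the transcriptome, because liver 1 is a single sample and genes of a pathway are not independent.

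The replication genes had a median relative level of 1.16, 0.926, 1.07 and 0.810 in livers 1 to 4. Of these 10 genes, 7 were highest in liver 1 and 3 in liver 3. The shares were 19.6% and 26.4% over all genes and 24.2% and 26.8% over those of low level, so 3 of 10 is near its share. Liver 4 was lowest for 6 and liver 2 for 4, against 21.7% and 28.2% of all genes. Over the genes of low level these shares were 33.4% and 23.2%. The G1 genes had a median relative level of 1.04, 0.992, 0.998 and 0.916, and the E2F and pocket protein genes of 0.991, 0.969, 1.05 and 0.965. The median CV was 45.8% over the 12 mitotic genes, 21.7% over the replication genes, 14.7% over the E2F and pocket protein genes and 13.7% over the G1 genes, beside 15.3% over all 13474 genes and 24.98% over the 5460 of low level.

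Of the 38 members averaging 0.1 FPKM or more, the highest liver was liver 1 for 24, liver 2 for 3, liver 3 for 9 and liver 4 for 2. The shares over all genes were 19.6%, 23.8%, 26.4% and 30.1%, and over the 5460 genes of low level 24.2%, 28.8%, 26.8% and 20.2%. The lowest liver was liver 1 for 4 members (Cdk4, Cdkn1b, E2f3 and E2f8), liver 2 for 10, liver 3 for 9 and liver 4 for 15. The shares were 20.5%, 28.2%, 29.7% and 21.7% over all genes and 19%, 23.2%, 24.4% and 33.4% over those of low level. Members thus stood most above these shares for being highest in liver 1. Without liver 1, liver 3 was highest for 7 of 12 mitotic genes and 7 of 10 replication genes, against 33% of all genes. Leaving out the 8 members whose deposited span also holds another gene, the 10 remaining mitotic genes were all highest in liver 1.

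**Figure D3:**
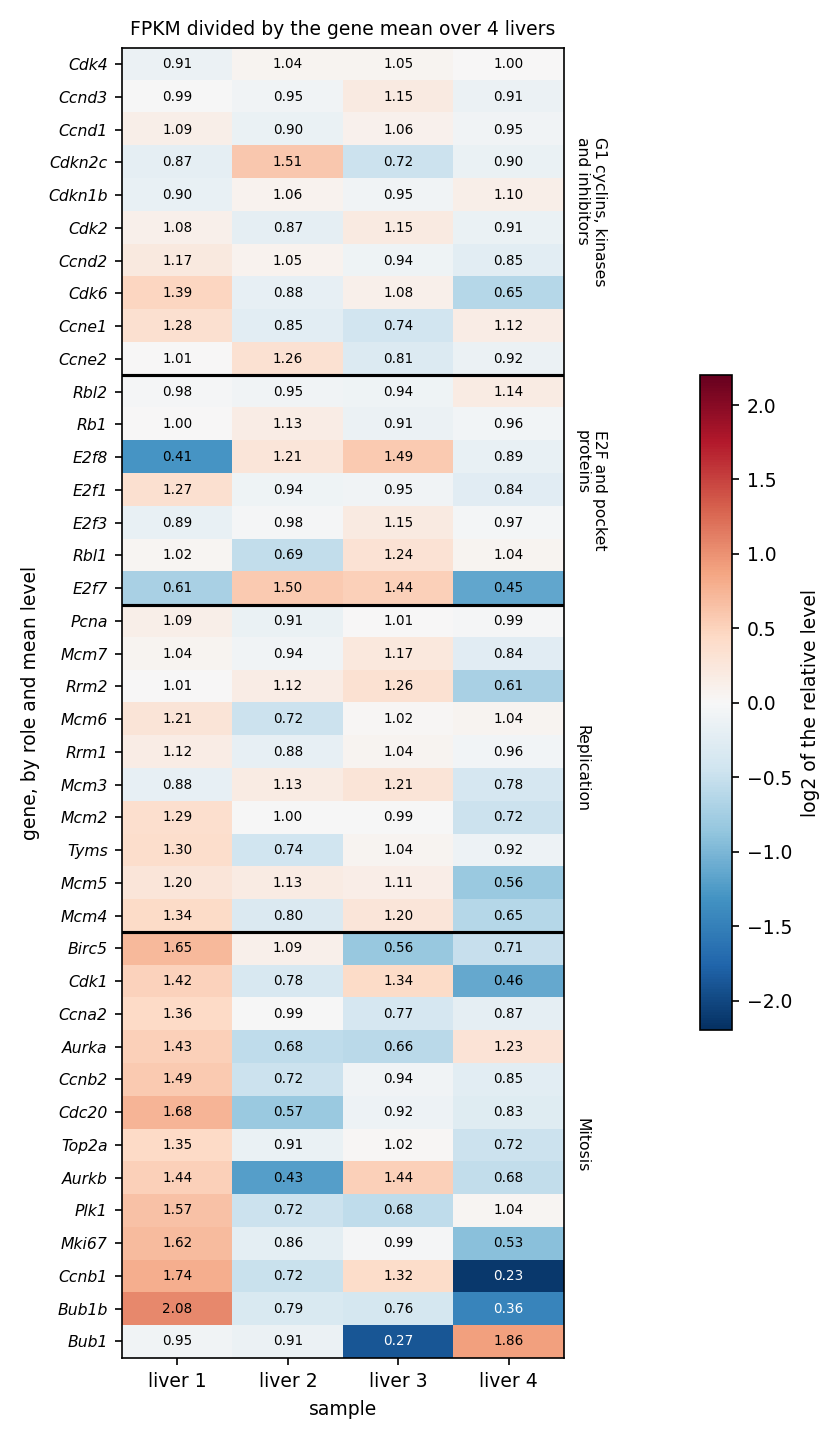
FPKM of each gene divided by its mean over the 4 livers, printed in each cell and coloured on a log2 scale, with the genes grouped by role and ordered by mean level. The mitotic block is above 1 in liver 1 for all genes but Bub1, whereas the G1 and pocket protein blocks show no liver that is high throughout.

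The summed mitotic level was also highest in liver 1, with 14.5, 7.97, 8.12 and 7.12 FPKM in livers 1 to 4. Birc5 was the most abundant mitotic gene, and without it the sums were 10.29, 5.22, 6.70 and 5.33 FPKM. Liver 1 stayed highest, but the lowest liver changed from liver 4 to liver 2. The replication genes summed to 53.1, 44.8, 51.7 and 42.9 FPKM, the G1 genes to 101, 107, 106 and 99.5 FPKM, and the E2F and pocket protein genes to 16.3, 17.1, 17.7 and 18.1 FPKM. In estimated fragments the 13 mitotic genes together held about 900, 497, 506 and 382. Liver 1 held the most mitotic fragments of the 4 livers and liver 4 the fewest.

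The spread between livers was set beside the counting error that depth alone would give. The 40 genes held on average between 4.33 and 1344 estimated fragments per liver, and 7 held fewer than 20. Counting error alone would give Mki67, at about 72.2 fragments, a CV of 11.8%, and its measured CV was 45.8%. For Ccnb2 the measured CV was 33.8% and the counting error 24.0%, a much smaller gap. The measured CV was more than 2 times the counting error for 26 of 40 members and for 9 of the 13 mitotic genes, against 54.2% of 10596 genes within the same range of fragments. The median ratio of measured to counting CV was 2.21 over the members and 2.12 over those genes, so the members lie near the background. Fragment numbers are estimates that rest on the longest annotated coding transcript and on the estimated depth.

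**Figure D4:**
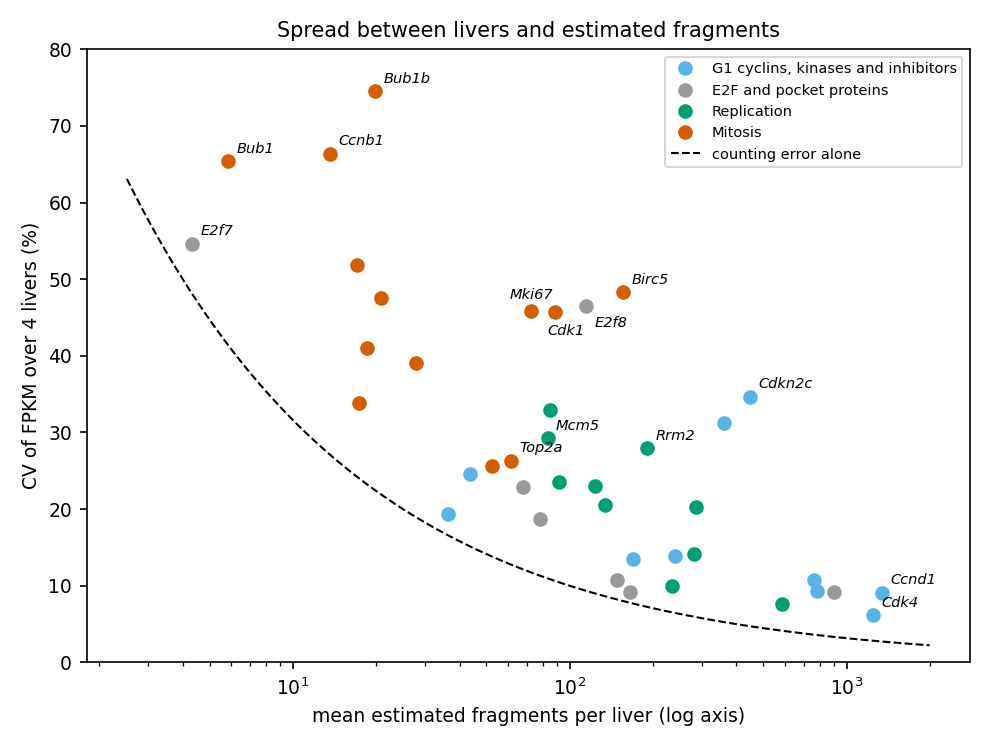
CV of FPKM over the 4 livers against the mean estimated number of fragments per liver (log axis), 1 point per gene coloured by role, with the CV that counting error alone would give as a dashed line. All 40 genes lie above the line, and in proportion E2f7 is closest to it (54.6% against 48.04%) and Cdkn2c farthest above it (34.7% against 4.72%).

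Promoters are shown because most mitotic genes shared a highest liver. Genes of S phase are known for E2F sites, and genes of mitosis for a cell cycle homology region (CHR) together with CCAAT boxes. RefSeq windows (GRCm38.p6) of 300 bases, from 250 before to 50 after the start of transcription, were found for 33 of the 40 members. Exact matches were sought on both strands to TTTCCCGC, TTTCGCGC, TTTGCCGC or TTTGGCGC (E2F), TTTGAA or TTCGAA (CHR) and CCAAT. No motif was required to be clear of another, and the E2F forms overlap each other where they meet head to head.

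CHR and CCAAT letters were frequent in the mitotic promoters. A CHR match was found in 9 of 11 mitotic promoters (81.8%), in 2 of 9 of the replication group, in 3 of 6 of the E2F and pocket protein group and in 0 of 7 of the G1 group, against 21.7% of 27025 genes. A CCAAT match was found in 10 of 11 mitotic and 8 of 9 replication promoters, against 41.1% of all genes. The E2F and pocket protein group had it in 3 of 6 and the G1 group in 4 of 7. CHR and CCAAT matches occurred together in 2 of 9 replication, 2 of 6 E2F and pocket protein and 0 of 7 G1 promoters. In the mitotic group they occurred together in 9 of the 11, against 9.65% of all genes, and both lay before the start in 6. The exceptions were Ccnb1, with CCAAT but no CHR match, and Birc5, with neither. An E2F match was found in 4 of 9 replication promoters, namely Mcm3, Mcm5, Mcm6 and Mcm7, in 3 of 6 of the E2F and pocket protein group, in 1 of 7 of the G1 group (Cdk2) and in 1 of 11 mitotic promoters (Cdk1), against 2.60% of all genes. These matches describe letters in the window: no binding was measured, and a relation of the letters to the levels was not tested.

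The 250 bases before the start are shown for 3 mitotic genes with both CHR and CCAAT letters there (Cdk1, Top2a and Cdc20), for the 2 mitotic genes without a CHR match (Ccnb1 and Birc5), for 2 helicase genes (Mcm5 and Mcm6) and for E2f8. Each is written 5′ to 3′ in the direction of the gene, with matches to any of the motifs on either strand in capitals. The stretches lie at chr10:69352913-69353162 on the minus strand (Cdk1), chr11:99024190-99024439 on the minus strand (Top2a), chr4:118437344-118437593 on the minus strand (Cdc20), chr13:100786487-100786736 on the minus strand (Ccnb1), chr11:117848987-117849236 on the plus strand (Birc5), chr8:75109259-75109508 on the plus strand (Mcm5), chr1:128359706-128359955 on the minus strand (Mcm6) and chr7:48881597-48881846 on the minus strand (E2f8).
Cdk1: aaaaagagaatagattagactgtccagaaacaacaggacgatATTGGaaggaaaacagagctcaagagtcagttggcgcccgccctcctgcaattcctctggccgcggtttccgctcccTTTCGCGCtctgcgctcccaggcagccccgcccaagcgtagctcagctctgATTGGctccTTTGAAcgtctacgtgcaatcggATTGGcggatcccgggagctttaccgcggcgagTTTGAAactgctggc
Top2a: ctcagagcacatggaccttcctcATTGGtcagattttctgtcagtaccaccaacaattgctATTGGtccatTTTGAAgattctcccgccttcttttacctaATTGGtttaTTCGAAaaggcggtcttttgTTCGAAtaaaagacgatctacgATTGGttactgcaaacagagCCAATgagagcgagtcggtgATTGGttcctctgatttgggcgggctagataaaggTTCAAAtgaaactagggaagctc
Cdc20: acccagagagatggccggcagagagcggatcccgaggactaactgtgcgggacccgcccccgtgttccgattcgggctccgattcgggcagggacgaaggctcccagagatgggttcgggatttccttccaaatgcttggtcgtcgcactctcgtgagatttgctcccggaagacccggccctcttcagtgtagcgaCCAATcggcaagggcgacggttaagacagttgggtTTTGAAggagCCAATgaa
Ccnb1: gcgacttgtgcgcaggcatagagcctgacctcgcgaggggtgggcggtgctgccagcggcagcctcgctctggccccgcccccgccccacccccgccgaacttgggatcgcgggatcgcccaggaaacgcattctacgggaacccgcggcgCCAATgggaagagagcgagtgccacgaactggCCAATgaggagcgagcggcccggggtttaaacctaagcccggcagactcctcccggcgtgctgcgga
Birc5: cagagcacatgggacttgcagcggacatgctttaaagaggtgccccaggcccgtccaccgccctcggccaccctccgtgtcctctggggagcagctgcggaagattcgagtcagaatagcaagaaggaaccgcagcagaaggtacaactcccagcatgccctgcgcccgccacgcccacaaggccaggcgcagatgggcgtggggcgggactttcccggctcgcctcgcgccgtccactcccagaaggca
Mcm5: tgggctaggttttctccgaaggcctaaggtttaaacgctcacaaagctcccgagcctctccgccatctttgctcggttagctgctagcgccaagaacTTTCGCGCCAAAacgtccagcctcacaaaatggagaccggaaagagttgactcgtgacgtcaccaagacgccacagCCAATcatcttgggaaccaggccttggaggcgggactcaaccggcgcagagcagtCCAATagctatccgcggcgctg
Mcm6: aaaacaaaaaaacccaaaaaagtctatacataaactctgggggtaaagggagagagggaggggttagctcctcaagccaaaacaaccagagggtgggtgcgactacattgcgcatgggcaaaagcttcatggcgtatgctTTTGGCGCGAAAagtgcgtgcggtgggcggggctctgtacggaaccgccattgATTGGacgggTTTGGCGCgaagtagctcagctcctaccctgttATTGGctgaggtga
E2f8: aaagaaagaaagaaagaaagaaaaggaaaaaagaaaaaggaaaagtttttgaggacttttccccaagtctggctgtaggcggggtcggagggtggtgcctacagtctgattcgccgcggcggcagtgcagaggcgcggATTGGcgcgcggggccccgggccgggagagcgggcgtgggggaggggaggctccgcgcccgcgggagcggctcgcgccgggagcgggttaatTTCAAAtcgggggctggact

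In the Cdk1 stretch the capitals hold 3 CCAAT boxes on the opposite strand, 2 CHR matches and 1 E2F match. The Top2a stretch holds 6 CCAAT and 4 CHR matches, and that of Cdc20 holds 2 CCAAT matches with 1 CHR match between them. The Ccnb1 stretch holds 2 CCAAT matches and that of Birc5 no match to any of the motifs. In Mcm5 and Mcm6 the longest run of capitals is a pair of overlapping E2F matches on opposite strands. The E2f8 stretch holds 1 CCAAT and 1 CHR match.

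Other genes of the same pathways were read from lists of symbols. Of 28 further kinetochore, spindle and mitotic regulators, 25 averaged 0.1 FPKM or more and 16 of these were highest in liver 1. The share was 19.6% over all genes and 24.2% over those of low level. The median relative level of these regulators was 1.24, 0.970, 0.922 and 0.999 in livers 1 to 4. The summed level of the 28 differed little, at 78.6, 74.3, 77.0 and 77.6 FPKM. At means of 1 FPKM or more the median of that list in liver 1 was 1.09. The 2 most abundant, Pttg1, which encodes securin, and Bub3, a checkpoint protein, were lowest in livers 1 and 3 in turn, with means of 33.8 and 20.4 FPKM. Of the 24 fork and polymerase genes, 12 were highest in liver 1 and the median there was 1.09. The origin licensing and firing genes did not share this order, with a median of 0.992 in liver 1 and 1.11 in liver 4. As a mean over genes, livers 1 and 4 were at 1.08 and 1.09. Of 14 such genes, 4 were highest in liver 1 and 6 in liver 4, against 19.6% and 30.1% of all genes. Mcm10, a replication factor loaded at origins, was 17.1, 15.2, 18.04 and 20.2 FPKM in livers 1 to 4, highest in liver 4. Tk1, thymidine kinase and the most abundant fork gene, was 14.6, 16.8, 20.3 and 24.1 FPKM, lowest in liver 1 and highest in liver 4. The summed level of the fork genes was likewise highest in liver 4, at 106, 97.4, 105 and 111 FPKM. For 13 further E2F, DP and MuvB partners the median in liver 1 was 1.08, and for 5 other CDK inhibitors it was 0.986. Of these inhibitors, Cdkn1a, which encodes the p53 target p21, was 4.10, 7.45, 6.29 and 3.41 FPKM, with livers 2 and 3 above livers 1 and 4.

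Markers of other cells of the liver were read beside the mitotic genes. In liver 1 the median relative level was 0.753 for T and NK cell markers and 0.707 for B and plasma cell markers. It was 0.892 for macrophage, 0.925 for neutrophil and 0.844 for endothelial markers, all likewise below 1. It was 1.10 for stellate cell and fibroblast markers, 1.05 for cholangiocyte markers, 1.05 for erythroid markers and 0.919 for hepatocyte markers. The T and NK cell and the B and plasma cell lists were of low level, with medians of the means of 0.479 and 0.826 FPKM. The summed T and NK cell markers were 3.67, 4.59, 3.85 and 1.97 FPKM in livers 1 to 4. That sum in liver 1 was above the mean of 3.52 FPKM, unlike the median. The summed B and plasma cell markers were 3.85, 5.37, 5.05 and 4.83 FPKM, lowest in liver 1. The monocyte and dendritic cell markers were at 1.20 in liver 1. There 4 of 6 were highest, against 19.6% of all genes and 24.2% of those of low level. The summed level of these 6 markers was 8.03, 6.87, 4.55 and 6.81 FPKM in livers 1 to 4. In liver 4, where the replication and mitotic genes had their lowest medians, the T and NK cell markers were at 0.544 and the neutrophil markers at 0.494. The other lists there were at 0.976 (B and plasma cell), 1.14 (macrophage), 1.08 (monocyte and dendritic cell), 1.04 (endothelial), 0.856 (stellate cell and fibroblast), 0.944 (cholangiocyte), 0.923 (erythroid) and 1.16 (hepatocyte). Of the markers found in the table, Alb was the only one at 0 in all livers. The part of these cells in the levels of the mitotic and replication genes was not tested.

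**Figure D5:**
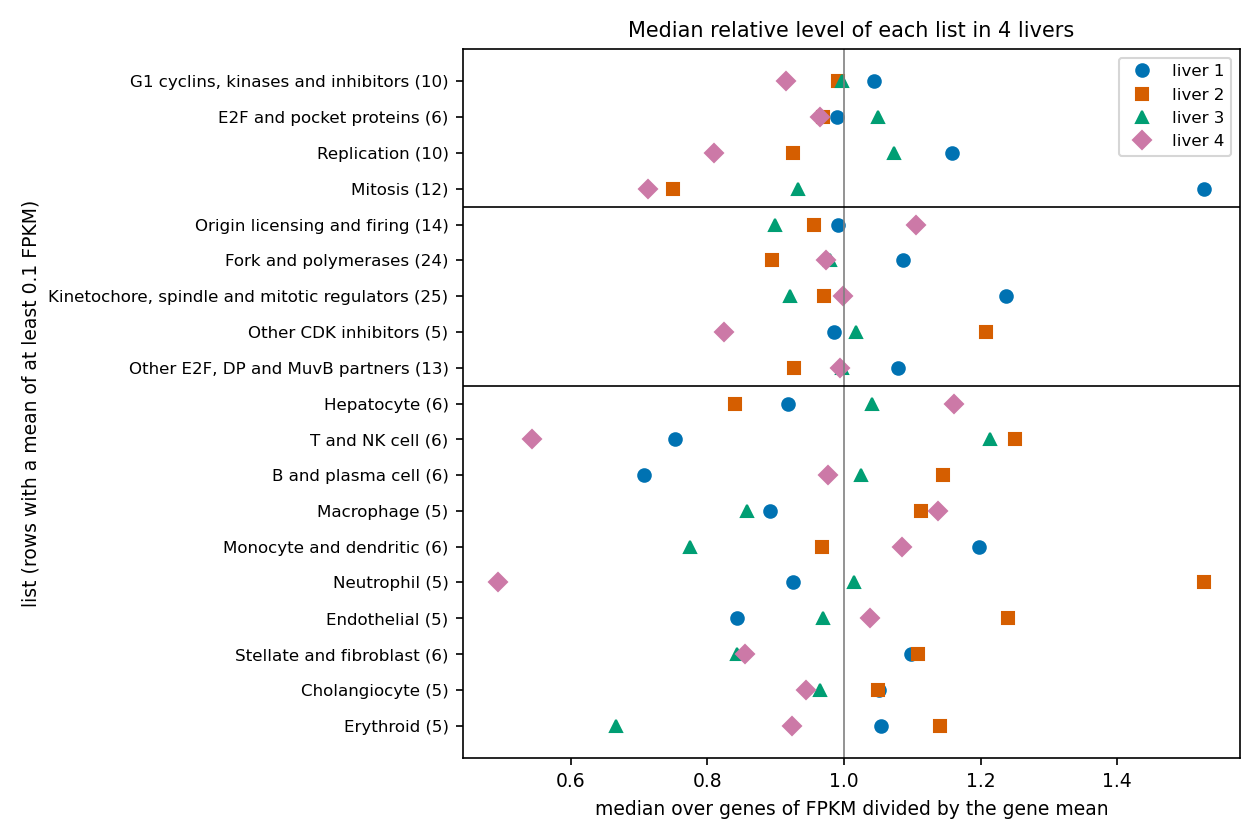
Median over genes of FPKM divided by the gene mean, for each liver and list, with the number of rows in parentheses. The groups of the 40 genes are at the top, other pathway lists in the middle and cell type markers at the bottom. Liver 1 is rightmost for mitosis (1.53), further mitotic regulators (1.24), monocyte and dendritic cell markers (1.20) and replication (1.16). It is also rightmost for fork and polymerase genes (1.09), further E2F, DP and MuvB partners (1.08), cholangiocyte markers (1.05) and G1 genes (1.04). It lies farthest left of 1 for B and plasma cell (0.707) and T and NK cell markers (0.753).

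Within families, 22 pairs of neighbours in the order of mean level were compared in the same libraries. The order was the same in 4 of 4 livers for 12 pairs. For these 12 the exact sign-flip permutation test, two-sided over 4 livers, gave its smallest possible p, which is 0.229 after adjustment over the 22 pairs, so no pair could pass a threshold of 0.05. Among the 12 were Cdk4 over Cdk2 (8.82 times), Cdk2 over Cdk6 (2.42 times), Cdk6 over Cdk1 (1.501 times), Rbl2 over Rb1 (5.16 times) and Ccne1 over Ccne2 (1.86 times). The pairs that changed order between livers included E2f8 over E2f1, Aurka over Aurkb and Bub1b over Bub1.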

How the data were processed

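RNA of 4 livers was sequenced after selection of polyadenylated RNA, per the labels' protocols. The submitters' processing notes name FastQC 0.10.1, Trim Galore 0.6.3, cutadapt, STAR 2.7.6a, Cufflinks 2.2.1 and the build mm10, with no role or order. The authors' deposited values carry no stated unit and were taken to be FPKM, since they are not whole numbers, sum to 516816 to 570681 per liver, and have identifiers of the form Cufflinks writes. A value of 0 can be a failed estimate. Each column was matched to its sample by description, with 0 columns left over.

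Starts were raised by 1, since 51.7% of 22836 starts then equalled RefSeq and 2.98% did before. Of the members, 8 share a deposited span with another gene (Rb1, Rbl2, Mcm7, Ccna2, Ccnd2, Ccnd3, Ccne2 and Cdc20), whose fragments may be divided between them. Depth was estimated from genes with 1 transcript longer than 800 bases in GENCODE vM21, from values of FPKM times length (less 200 bases) between 25 and 75, taken as single fragments, with 18.2 to 21.1 M over other trims.

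Spread was the SD of log2(FPKM + 1). Relative levels use no pseudocount, and genes averaging 0.1 FPKM or more that are above 0 in all livers. The members, role groups and other lists were chosen with earlier results of these data known. By rule, all 40 members could be named, and of the other lists the 2 genes of highest mean and any past Dixon's ratio. Python 3.11.15, numpy 2.4.6, pandas 2.3.3 and scipy 1.17.1 were used. In tests on simulated data with 10541 genes, Dixon's ratio called 45.5% of genes with a liver shifted by 8 SD, 95.5% at 20 SD and 5.13% of unshifted genes.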

Additional observations from a re-analysis of the deposited data

Results flagged for a closer look

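Each gene, sum, within-family ratio and list median was screened for a liver that stood apart from the other 3 by Dixon's ratio, and 3 of 85 values passed, where chance gives about 1 in 20. Mcm5 in liver 4 was 0.756 FPKM, against 1.48 to 1.61 FPKM in the other livers (ratio 0.875 on log2(FPKM + 1)). The summed mitotic level in liver 1 was 14.5 FPKM, against 7.12 to 8.12 FPKM in the others (ratio 0.863), and without Birc5 the ratio was 0.708 and no longer passed. The log2 ratio of Mcm5 over Mcm4 was 0.55 in liver 2, against -0.13 to -0.06 in the others (ratio 0.895).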

How the results depend on the processing

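No paired analysis was possible because all livers belong to a single group. The number of members with a mean of at least 1 FPKM stayed within 1.5 times of 26 under all alternatives run, and summed levels moved by less than 1 SD. The median SD of the expressed members was 0.18, beside 0.16 over all genes. It was 0.27 with a pseudocount of 0.1 (0.19 over all genes), 0.0933 with a pseudocount of 5 (0.106), 0.12 with a mean of at least 5 FPKM (0.16) and 0.20 with equal sums (0.16). When a liver was left out it ran from 0.149 to 0.170, and it fell below that of all genes without liver 1 (0.1655 against 0.1676) and without liver 4 (0.1491 against 0.1505), as it did with the pseudocount of 5 and at 5 FPKM. Mcm5 was not among genes of at least 5 FPKM, which left 0 members past Dixon's ratio.

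For mitosis the median in liver 1 ran from 1.43 to 1.68 over all alternatives. The count highest in liver 1 was 7 of 7 at 0.5 FPKM and 2 of 2 at 1 FPKM. In liver 3 it was 1 with equal sums and with median-ratio scaling, and in liver 4 it was 1 with no filter (Bub1). For all members 14 of 26 were highest in liver 1 at 1 FPKM. In liver 2 the count for all members was 1 without shared spans, and in liver 4 it was 1 without shared spans, with equal sums and with median ratios. For G1 in liver 2 it was 1 at 1 FPKM and 1 without shared spans, and in liver 4 it was 0 with both scalings. For E2F and pocket proteins it was 2 with no filter in liver 2, and 0 in livers 2 and 4 without shared spans. Among the role groups, medians that moved beyond 1 SD were G1 in liver 2 without shared spans (0.901), G1 in liver 4 with equal sums (0.853), and E2F and pocket proteins in liver 1 with the mean over members (0.930), in liver 4 with equal sums (0.900) and in liver 3 (0.9499 at 1 FPKM, 1.15 with no filter, 1.09 about the median, 1.11 with the mean and 1.20 without shared spans). Of the other lists, those that moved were origin licensing in liver 1 with the mean over genes (0.992 to 1.08), further mitotic regulators in liver 1 at 0.5 and at 1 FPKM (1.24 to 1.09 in both) and further E2F, DP and MuvB partners in liver 4 with equal sums (0.994 to 0.928).

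Log2 ratios near 0 changed sign. E2f8 over E2f1 was -0.01 and became 0.0299 with a pseudocount of 1, and from -0.28 to 0.49 when a liver was left out (0.49 without liver 1). E2f1 over E2f3 was -0.00255 and became 0.00106 with a pseudocount of 1, and from -0.18 to 0.0851 when a liver was left out. Without liver 2, Cdkn2c over Cdkn1b became -0.10 (up to 0.19 without another) and Mcm5 over Mcm4 became -0.0991 (up to 0.129 without another). The cause was not tested. The alternatives without shared spans and without Birc5 were chosen after seeing the data.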
